A study of Mus musculus with 16 samples.

Results

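Zfp42 and Fgf4 are marker genes of undifferentiated mouse embryonic stem (ES) cells. This account describes CTCF CLIP peaks on their RNA, CTCF ChIP peaks around them and their nuclear RNA before and after 3 days of differentiation. The genes are 2 of 42918 transcribed regions, each region being the union of nuclear RNA-seq intervals that overlap on a strand at either day. They were chosen by position on mouse build mm9, Zfp42 (also called Rex1) on chr8:44380422-44392529, minus strand, and Fgf4 on chr7:152047030-152051148, plus strand. Their CLIP, RNA-seq and ChIP values were known when they were chosen, so these values are given as descriptions and no test was made on them. The deposited lists carry no gene names. The RefSeq genes have the same chromosomes and strands and lengths of 11943 and 3860 bases, beside 11942 and 4094 bases for the day 3 RNA intervals.

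The series measured the RNA contacts and the chromosomal sites of CTCF, a zinc-finger protein of insulators and domain boundaries, with attention to the X chromosome. All samples are female hybrid mouse ES cells, either undifferentiated and adherent with LIF (day 0) or after 3 days in suspension without LIF (day 3). CLIP-seq, in which UV light crosslinks RNA to a protein before its isolation, was done with anti-FLAG M2 beads on UV-treated cells with 2 libraries at each day, and nuclear RNA-seq had 1 library at each day. These cells are labelled CAST/Ei x 129/Sv/Jae, while the ChIP cells, with 2 CTCF libraries at day 0 and 1 at day 3, are labelled 129S1/CastEiJ x 129S1. The labels do not say which protein carries the FLAG tag or whether replicates were separate cultures, so the spread between replicates may be technical. The no-UV CLIP samples and the ChIP inputs were not analysed here, and the values below therefore have no background level beside them.

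Mouse ES cells held with LIF resemble the early epiblast, and they leave this naive state when LIF is withdrawn. Zfp42 encodes a zinc-finger protein of the YY1 family that is widely used as a marker of the naive state and is lost early as cells leave it. Fgf4 encodes a secreted fibroblast growth factor that undifferentiated cells make themselves, and its signal through FGF receptors and ERK promotes their exit from the naive state. The pluripotency factors OCT4 and SOX2 act on both genes, on Fgf4 through an enhancer in the downstream part of the gene.

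The promoter sequences are shown because the members share ES cell expression and because CTCF binding near them was measured. They are the 250 bases before each RefSeq start on build GRCm38.p6, 5′ to 3′ on the strand of the gene, and both genes had an entry. Capitals mark the octamer element (ATGCAAAT or its reverse complement ATTTGCAT), which POU factors such as OCT4 bind, and the GC box (GGGCGG or CCGCCC), which SP and KLF factors bind.
Zfp42, chr8:43307010-43307259, minus strand: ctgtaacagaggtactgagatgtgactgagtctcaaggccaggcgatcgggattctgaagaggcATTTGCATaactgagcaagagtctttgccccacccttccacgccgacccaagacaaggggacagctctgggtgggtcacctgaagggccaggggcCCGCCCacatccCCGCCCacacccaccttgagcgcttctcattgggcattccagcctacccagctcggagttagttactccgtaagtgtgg
Fgf4, chr7:144861136-144861385, plus strand: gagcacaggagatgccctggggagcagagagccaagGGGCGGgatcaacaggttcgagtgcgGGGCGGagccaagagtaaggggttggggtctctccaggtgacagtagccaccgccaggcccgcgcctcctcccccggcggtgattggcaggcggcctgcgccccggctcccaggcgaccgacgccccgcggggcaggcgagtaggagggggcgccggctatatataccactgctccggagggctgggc

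Zfp42 held 1 octamer, 186 to 179 bases before the start, a motif that 1.60% of 32851 mouse promoters of this length held on either strand. Fgf4 held none in this window. Each promoter held 2 GC boxes, at 91 to 86 and 79 to 74 bases before the start in Zfp42 and at 214 to 209 and 188 to 183 bases in Fgf4. The GC box was common, being present in 32.7% of promoters. A CTCF core (CC, any 3 bases, AGG, any base, GGC, in 2.93% of promoters), a TATA box (TATAAA, 12.4%) and a SOX core (ACAAAG, 16.5%) were searched on both strands. In these exact letters they matched neither promoter. Variant forms were not searched, so CTCF-like, TATA-like and SOX-like elements are not excluded in either promoter. The Fgf4 sequence holds TATATATA shortly before its start. It also holds AGGCGGC and AGGGGGC, which match the last part of the CTCF core. The promoters differed in base composition. GC content was 71.2% with 21 CG dinucleotides in Fgf4 and 58.4% with 9 in Zfp42, against medians of 52.4% and 6 over all promoters. A match of letters is a description of the sequence and does not show that a factor binds there.

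CLIP lists held 106382 to 213181 peaks covering 4.71 to 8.30 Mb, ChIP lists 41264 to 76745 peaks, and RNA-seq lists 40668 (day 0) and 28677 (day 3) intervals. How many reads stand behind each list is unknown. The lowest CLIP score listed was 409 and 406 in the replicate 1 libraries and 221 and 212 in the replicate 2 libraries of day 0 and day 3, and the replicate 1 lists are shorter at both days. Peak bases were therefore scaled to the total covered by each list, and a scaled density is given as peak bases per kb of gene per Mb of list.

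Same-strand CLIP peaks were dense on both RNAs at day 0 and sparser at day 3. Zfp42 carried 66 and 92 peaks at day 0, replicate 1 first, and 14 and 50 at day 3. Fgf4 carried 26 peaks in each day 0 library and 4 and 17 at day 3. No peak lay on the opposite strand of either gene in any of the 4 libraries. Day 3 replicate 1 had the fewest peaks on both genes, and it also has the shortest list, with 106382 peaks. The day 0 replicate 1 list is nearly as short, with 114016 peaks, and held 66 on Zfp42 and 26 on Fgf4.

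The scaled density was lower at day 3 for both genes, as the plot of levels shows. For Zfp42 it was 55.7 and 44.4 at day 0 and 13.2 and 22.7 at day 3, with means of 50.1 ± 8.04 and 17.95 ± 6.71 (SD, n = 2). For Fgf4 it was 55.4 and 39.0 at day 0 and 8.76 and 25.1 at day 3, with means of 47.2 ± 11.6 and 16.9 ± 11.6 (SD, n = 2). The day 0 mean of 2 libraries was 2.79 times the day 3 mean for each gene, a match that single libraries do not keep, and both day 0 libraries lay above both day 3 libraries. Of 12325 regions with peaks in at least 2 libraries, 18.1% had this order and 18.1% had the reverse, so the order itself sets neither gene apart.

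**Figure D1:**
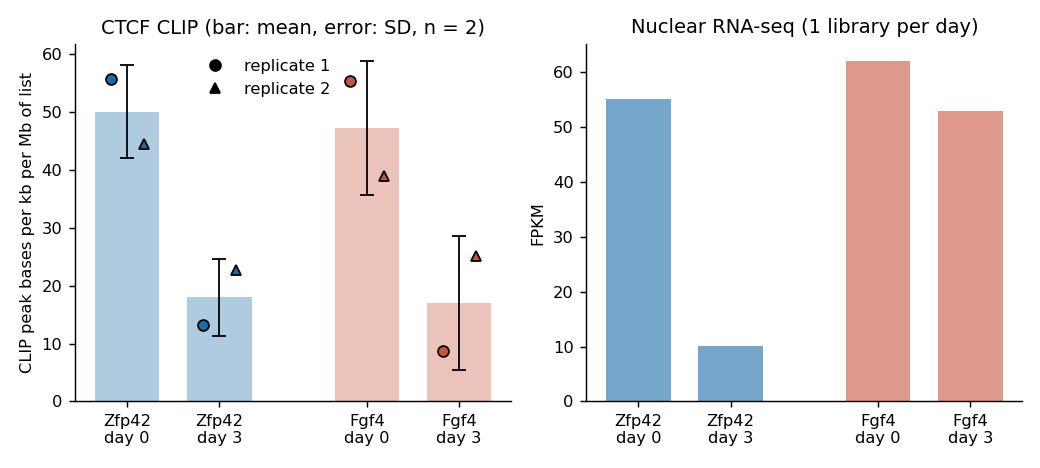
Left, same-strand CTCF CLIP peak bases per kb of gene per Mb of each library's list for Zfp42 and Fgf4 at day 0 and day 3 (bars are means, error bars SD, n = 2, circles replicate 1 and triangles replicate 2). Right, nuclear FPKM from 1 library per day; the CLIP means of both genes were lower at day 3, while FPKM went from 55.1 to 10.2 for Zfp42 and from 62 to 52.98 for Fgf4.

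On the scale of log2 of scaled peak bases plus 1, day 3 minus day 0 was -1.52 ± 0.58 for Zfp42 and -1.63 ± 0.76 for Fgf4 (SE of the fit over all regions). Over the 12325 regions the median difference was -0.01, and 12.1% of regions lay at or below Zfp42 and 11.0% at or below Fgf4. limma with Benjamini-Hochberg adjustment over all 12325 called 0 regions (0%), and 1047 had an unadjusted p under 0.05, with a smallest adjusted p of 0.215. Leaving out day 3 replicate 1 brought the difference to -1.13 for Zfp42 and -0.88 for Fgf4, and leaving out day 3 replicate 2 brought it to -1.91 and -2.38, so the size of the difference depends on which day 3 library is used, more so for Fgf4. With 2 libraries against 2, an exact permutation test cannot go below p = 0.33.

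**Figure D2:**
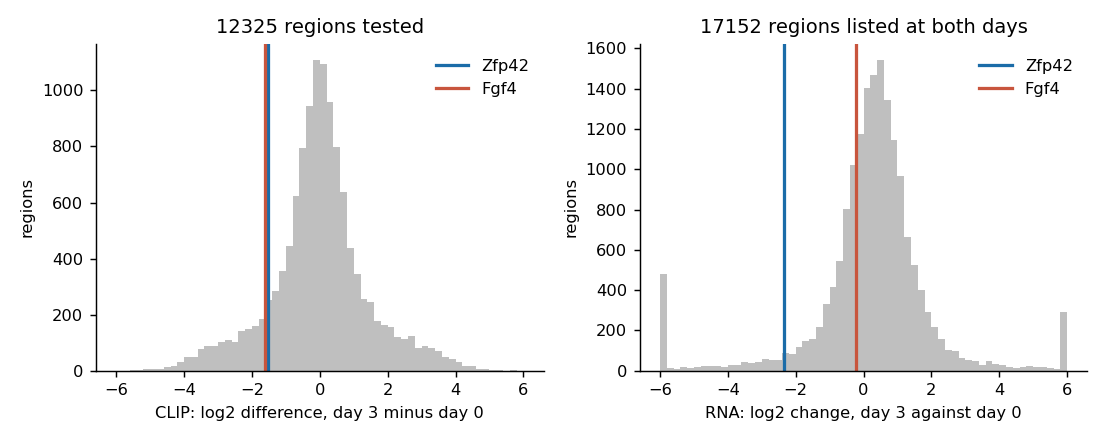
Left, number of regions by CLIP log2 difference, day 3 minus day 0, over the 12325 regions tested; right, number of regions by log2 change of FPKM plus 1 over the 17152 regions listed at both days with mean FPKM of at least 5 and 300 bp, values past the axis being placed in the end bins. Vertical lines mark Zfp42 (-1.52 and -2.33) and Fgf4 (-1.63 and -0.22), which lie side by side in CLIP and apart in RNA.

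Both RNAs were among the most densely covered of the long expressed regions at day 0. Peaks covered 27.4% and 36.8% of Zfp42 at day 0, replicate 1 before replicate 2, and 6.23% and 15.4% at day 3. They covered 27.2% and 32.4% of Fgf4 at day 0 and 4.13% and 17.1% at day 3. Among the 15716 day 0 regions that reach 1 kb in length and an FPKM of 1, Zfp42 ranked 14 and 7 in the 2 libraries and Fgf4 ranked 16 and 13. At day 3, among 14761 regions, Zfp42 ranked 351 and 74 and Fgf4 ranked 621 and 55. The median region had 2.21 to 5.24 peak bases per kb over the 4 libraries, against 41.3 to 368.4 for the members, so both genes stayed within the upper 5% of regions in each library, with 4.20% of regions above Fgf4 in day 3 replicate 1.

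The score that the authors list for each peak describes how the members' peaks compare with the rest of a list. The median score on Zfp42 was 666.5 and 428.5 in the day 0 libraries, against 596 and 316 for all minus-strand peaks. At day 3 it was 671.5 and 420, against 612 and 426. On Fgf4 it was 741.5 and 410.5 at day 0, against 598 and 305 for plus-strand peaks, and 603.5 and 526 at day 3, against 607 and 355. The median score of each gene was above its strand's median in both day 0 libraries, and each gene had 1 day 3 library where it was not. In day 0 replicates 1 and 2, 65.2% and 76.1% of Zfp42 peaks reached the strand's median. For Fgf4 peaks the shares were 65.4% and 69.2%. The Zfp42 peak that stood highest within its list was chr8:44387556-44387662 in day 0 replicate 2, which scored 2354 with 0.0704% of minus-strand peaks above it. For Fgf4 it was chr7:152049009-152049123 in the same library, which scored 1239 with 0.265% of plus-strand peaks above it. Whether scores of different lists are on a common scale is not known, and no score is compared between days here.

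At day 0, peaks lay along the whole of Zfp42 and most densely from the middle of Fgf4 onward, short of its 3′ end, as the map of CLIP peaks shows. In 5 equal stretches from the 5′ to the 3′ end, coverage of Zfp42 in day 0 replicate 1 was 32.4%, 23.7%, 34.0%, 16.6% and 30.4%, and in replicate 2 it was 31.8%, 47.6%, 41.4%, 28.6% and 34.8%. Each stretch of Zfp42 was thus covered at day 0. At day 3 it had 0%, 12.1%, 1.11%, 5.66% and 12.3% in replicate 1 and 14.3%, 26.6%, 7.56%, 13.7% and 15.0% in replicate 2, so with 14 peaks replicate 1 left the 5′ stretch empty. For Fgf4 the same stretches had 8.37%, 5.70%, 55.2%, 47.3% and 19.6% in day 0 replicate 1 and 23.5%, 6.92%, 49.6%, 47.1% and 34.8% in replicate 2. The third and the fourth stretch of Fgf4 were the most covered in both day 0 libraries and in day 3 replicate 2, which had 35.6% and 21.2% there. Day 3 replicate 1, with 4 peaks, had 1.94% and 15.2%.

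**Figure D3:**
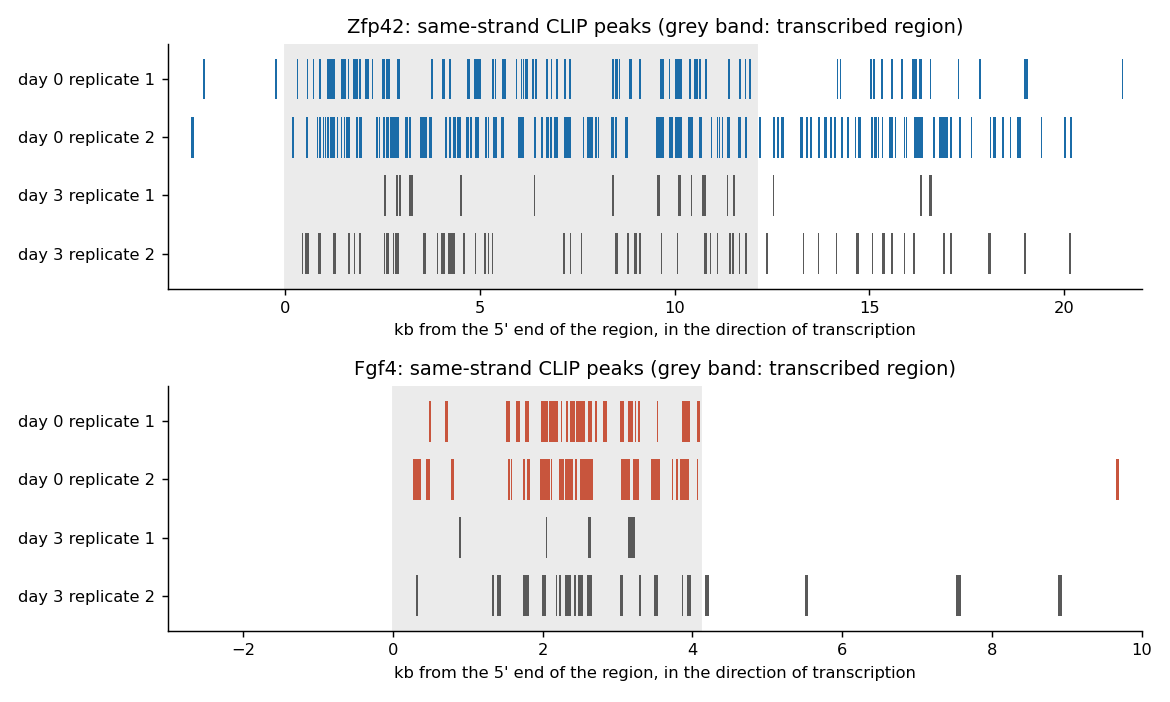
Same-strand CLIP peaks of the 4 libraries on Zfp42 (top) and Fgf4 (bottom), in kb from the 5′ end in the direction of transcription, with the transcribed region in grey, day 0 in colour and day 3 in dark grey. Zfp42 peaks go on past the 3′ end of the region, while Fgf4 had 0, 0, 0 and 4 peaks in the next 5 kb in the libraries from top to bottom.

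Individual positions recurred between libraries only in part. Of the Zfp42 bases under a peak in day 0 replicate 1, 57.7% were under a peak in replicate 2, whose peaks covered 36.8% of the gene. Of the bases in day 3 replicate 1, 56.5% were shared with day 0 replicate 2 and 16.0% with day 3 replicate 2, whose peaks covered 15.4% of the gene. So the day 3 libraries shared about as many Zfp42 bases with each other as their coverage alone gives. In Fgf4, 56.4% of the day 0 replicate 1 bases were shared with replicate 2 (coverage 32.4%), and 27.1% of the day 3 replicate 1 bases were shared with day 3 replicate 2 (coverage 17.1%). These shares rest on 754 Zfp42 bases and 170 Fgf4 bases in day 3 replicate 1.

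Few bases were covered in all 4 libraries. They were 27 bases of Zfp42 (0.223% of the gene) and 44 of Fgf4 (1.07%), while 45.5% and 52.0% of the bases lay under no peak of any library. The longest stretch common to the 4 libraries was chr7:152049633-152049670 in Fgf4, 38 bases long. In Zfp42 it was chr8:44389618-44389639, 22 bases long. The Fgf4 stretch lies inside the highest-scoring Fgf4 peak of day 3 replicate 2, chr7:152049616-152049694.

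The nuclear RNA of the 2 genes differed between days to unequal extents. Zfp42 had an FPKM of 55.1 at day 0 and 10.2 at day 3, a ratio of 5.43 and a log2 change of -2.33 on FPKM plus 1. Fgf4 had an FPKM of 62 at day 0 and 52.98 at day 3, a ratio of 1.17 and a log2 change of -0.22. By the FPKM listed, which is a mean over transcripts, both genes were at a like level at day 0. There 5.70% and 5.45% of the 18649 regions of at least 1 kb were higher. At day 3, of 17124 such regions, 40.5% were above Zfp42 and 5.48% were above Fgf4. The medians of these regions were 6.32 at day 0 and 7.9 at day 3.

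The RNA changes have no replicate check, with 1 library per day, and no test was made. Of 20425 regions with a mean FPKM of at least 5 and 300 bp, 20% had a log2 change of -1 or lower, among them Zfp42, and 12.4% of the 17152 regions listed at both days had one. Among the latter, 5.94% had a log2 change at or below that of Zfp42 and 27.9% at or below that of Fgf4, with a median of 0.34. Over all 20425 regions these shares were 14.5% and 33.0%. Among the 10797 regions listed at both days that reach 1 kb, with intervals of at least 300 bp, they were 8.03% and 31.4%. The Zfp42 FPKM is a mean over 7 transcripts at day 0 and 5 at day 3. Summed over them it was 386.04 and 50.79, a ratio of 7.60. Fgf4 had 2 transcripts at both days, with sums of 124 and 105.96. By sums, Zfp42 was thus above Fgf4 at day 0 and below it at day 3. In bulk nuclear RNA, fewer cells that express a gene and less RNA per cell cannot be told apart, and this holds for the CLIP values too.

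CLIP coverage per unit of RNA was higher at day 3 in 1 gene and lower in the other. For Zfp42 the scaled density per FPKM was 1.01 and 0.805 at day 0, against 1.30 and 2.23 at day 3. For Fgf4 it was 0.893 and 0.629 at day 0 and 0.165 and 0.474 at day 3. The Zfp42 values were higher at day 3, where the divisor was an FPKM of 10.2 against 55.1 at day 0. The Fgf4 values were lower at day 3. For scaled peak bases alone, 18.1% of 12325 regions had both day 0 libraries above both day 3 libraries, and 18.1% had the reverse. The share of regions with such an order per FPKM is not given here, so the order is not read as a trait of either gene. The 2 values of a day share 1 FPKM, so a change in that RNA library moves both, and a peak list is not a count of reads and need not scale with RNA. No test of the difference between the genes was made.

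Transcription beside the genes was listed on the same strand. Within 20 kb past the 3′ end of Zfp42 lay 4 minus-strand regions. The nearest, chr8:44377065-44378388, had an FPKM of 21.75 at day 0 and 13.33 at day 3, with 9, 9, 0 and 4 CLIP peaks in day 0 replicates 1 and 2 and day 3 replicates 1 and 2. The next, chr8:44374768-44377000, went from 26.84 to 21.08 FPKM with 7, 19, 2 and 7 peaks. The other 2 were listed at day 0 only, at 9.27 and 7.11 FPKM. CLIP continued past the gene, with a scaled density in the next 5 kb of 23.6, 43.1, 6.28 and 14.9 in the same order of libraries, so this flank too was lower in the day 3 libraries. Before the 5′ end, the nearest 5 kb held 2, 1, 0 and 0 peaks.

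The flanks of Fgf4 were nearly free of CLIP peaks. Past its 3′ end lay 5 plus-strand regions of 272 to 440 bases, of which 4 were listed at day 0 only and 1 had a peak, in day 3 replicate 2. On the other side, chr7:152023845-152030341, ending 16688 bases before the 5′ end, went from 12.25 to 24.01 FPKM and held 0 peaks in each of the 4 libraries. In RefSeq, Triml1, Triml2 and Adam26b are neighbours of Zfp42, and Fgf3, Fgf15 and Ccnd1 are neighbours of Fgf4. No mm9 annotation was used, so the regions beside the genes are not matched to these names.

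CTCF ChIP peaks within 20 kb of Zfp42 differed more between the 2 day 0 libraries than between the days. Day 0 replicate 1 listed 0, day 0 replicate 2 listed 7 and the day 3 library listed 2. Of the 7, 3 lay in the gene, at chr8:44380597-44382327 (score 11.1), chr8:44383397-44385234 (12.4) and chr8:44389220-44392316 (17.6), the last ending 213 bases from the 5′ end. The list of day 0 replicate 2 is the longest, with 76745 peaks and a median score of 16.6, and only 1 of the 3 exceeds it. Neither of the other libraries had a peak in the gene. Of the 15716 long expressed day 0 regions defined above, 50.1%, 67.8% and 51.4% held a ChIP peak in day 0 replicate 1, day 0 replicate 2 and the day 3 library.

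The ChIP peaks common to the 3 libraries lay farther from Zfp42. The strongest, chr8:44418032-44420090, scored 104.5 in day 0 replicate 1, with 0.436% of its list above it, and its counterparts scored 47.9 in day 0 replicate 2 and 82.5 at day 3. It begins about 25.5 kb before the 5′ end. A nearer peak of the day 3 library, chr8:44412088-44415258 (score 31.9), reaches into the 20 kb window. The day 0 peaks it overlaps, with scores of 55.0 and 38.1, lie just outside the window, so the count of 2 against 0 depends on its edge. Within 50 kb the libraries listed 7, 13 and 5 peaks, with 4 sites common to the 3.

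Fgf4 had no ChIP peak inside it and a similar number around it in each library, 2, 3 and 2 within 20 kb. A site common to the 3 libraries lay upstream, at chr7:152031235-152033269 in day 0 replicate 1, 13760 bases before the 5′ end. It scored 48.1 and 29.2 at day 0 and 40.1 at day 3. A closer peak, chr7:152036382-152038561 in day 0 replicate 2 (21.5), 8468 bases before the 5′ end, had a counterpart at day 3 (23.6) and none in day 0 replicate 1. Past the 3′ end, day 0 replicate 1 listed chr7:152057261-152057680 (17.9) and day 0 replicate 2 listed chr7:152055306-152056566 (10.3), which do not overlap. Within 50 kb the libraries listed 6, 7 and 7 peaks, and 5 sites were common to the 3.

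**Figure D4:**
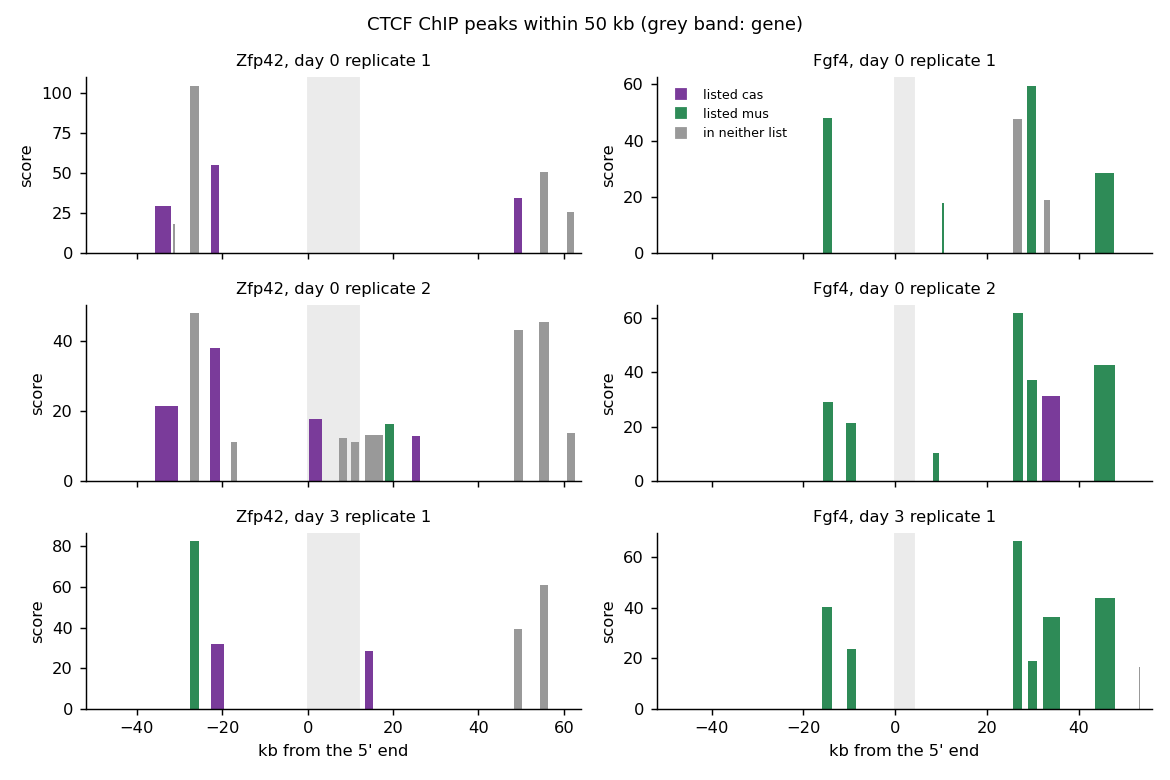
CTCF ChIP peaks within 50 kb of Zfp42 (left) and Fgf4 (right) in the 3 libraries, with distance in kb from the 5′ end in the direction of transcription, the authors' score as height (linear, from 0, a scale for each panel), the gene in grey and colours for the allelic list that holds the peak. Peaks inside Zfp42 appear only in day 0 replicate 2, and no library has a peak inside Fgf4.

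In Zfp42 the CLIP peaks were not gathered under the ChIP peaks at day 0. The 3 ChIP peaks of day 0 replicate 2 cover 55.1% of the gene. CLIP coverage was 27.0% under them and 28.0% elsewhere in day 0 replicate 1, and 33.3% and 41.2% in day 0 replicate 2. In the day 3 libraries it was 7.89% and 18.2% under them against 4.19% and 12.0% elsewhere. Since the ChIP peaks were listed in 1 of 3 libraries, this comparison describes those libraries only.

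The allelic lists name a subset of peaks as cas or mus, for the 2 parental genomes, and the surroundings of the members differed in them. Within 5 Mb of Zfp42, day 0 replicate 1 had 132 ChIP peaks in the cas list and 8 in the mus list (94.3% cas, exact Clopper-Pearson 95% interval 89.1 to 97.5). The shares were 84.4% (78.9 to 88.95) in day 0 replicate 2 and 94.8% (88.3 to 98.3) at day 3. Around Fgf4, 0 of 152 peaks were listed as cas in day 0 replicate 1 (0 to 2.40%), 1 of 241 in day 0 replicate 2 (0.415%, 0.0105 to 2.29) and 0 of 156 at day 3 (0 to 2.34%). The intervals cover counting error only, and peaks of a window share 1 library and 1 stretch of chromosome. Allelic lists held 49.5% to 60.6% of the peaks around Zfp42 and 89.4% to 92.3% of those around Fgf4. These shares describe windows of several Mb and not the genes alone. Within 50 kb of Zfp42 the cas lists held 3, 4 and 2 peaks in day 0 replicates 1 and 2 and at day 3. There 4, 8 and 2 peaks were in neither list. The strongest site common to the 3 libraries near Zfp42 was in neither list at day 0 and in the mus list at day 3. Within 50 kb of Fgf4 the mus lists held 4, 6 and 6 peaks, and 1 peak of day 0 replicate 2 was listed as cas. The cas share over all ChIP peaks of a library or of a chromosome is not given here. Whether such shares are usual in these lists is therefore not known.

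For CLIP, whose cells carry another strain label, the allelic lists reach 1 of the members in 1 library. On Fgf4, day 0 replicate 1 had 2 cas and 12 mus peaks among its 26 (14.3% cas, exact 95% interval 1.78 to 42.8). Over the plus strand of chromosome 7 in that library 584 were cas and 581 mus (50.1%, 47.2 to 53.0). Neighbouring peaks are not independent, so the exact intervals are too narrow. How such shares spread over other genes was not examined, so no difference of Fgf4 from the chromosome is drawn from these counts. The allelic lists used here hold 0 peaks over the whole plus strand of chromosome 7 in the other 3 libraries and 0 over the whole minus strand of chromosome 8 in all 4. The lack of allelic peaks on Fgf4 in those libraries and on Zfp42 therefore belongs to the reach of these lists and says nothing about the genes.

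The regions most like each gene over 6 values, log2 scaled CLIP in 4 libraries and log2 of FPKM plus 1 at 2 days, were sought among 11251 regions of at least 1 kb by Euclidean distance. For Zfp42 the nearest was chr5:32913258-32989430, plus strand, at a distance of 0.47, with FPKM going from 62.8 to 9.66. The next 4 lay at 1.04 to 1.22, on chromosomes 4, 16, X and 11. For Fgf4 the nearest was chr8:28370548-28386128, plus strand, at 0.94, with FPKM going from 94.3 to 46.4, and the next 4, on chromosomes 4, X, 8 and 10, lay at 1.67 to 1.75. The 2 genes were 4.13 apart, and Fgf4 ranked 1207 among the regions in distance from Zfp42. Scaled CLIP is not per length here, so longer regions with sparser peaks count as alike.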

How the data were processed

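Female mouse ES cells at day 0 and day 3 were assayed by CLIP-seq, CTCF ChIP-seq and nuclear RNA-seq, and 9 of 16 samples had files used here. Sample titles gave the groups and replicate numbers. Zfp42 and Fgf4, the lists and the alternatives were chosen with earlier results of these data known. Peak lists deposited by the authors hold a score per peak, of unknown scale, and the value in the authors' RNA-seq lists was read as FPKM because Cufflinks 2.1.1 is named, without a role, in the submitters' processing notes. The same notes name bedtools 2.17.0, Novoalign 3.00.03, TopHat2 2.0.8, SAMtools 0.1.18, cutadapt 1.0 and Trim Galore 0.3.3, and build mm9. Which caller made the peaks is not stated in them. Allelic lists deposited by the authors hold other columns of unknown meaning, and only their positions were used.

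RNA-seq intervals overlapping on a strand were merged into 42918 regions, each with the FPKM of its highest interval. A region missing from a day's list was set to 0. The FPKM of intervals that pool transcripts is the authors' mean: multiplied by the number of transcripts, 100% of 9640 and 8888 such values were whole hundredths (tolerance 0.0001). Same-strand peak bases were divided by the Mb covered by the library's list, and log2 with a pseudocount of 1 was compared by limma 3.58.1 (R 4.3.3) without a block, over regions with peaks in at least 2 libraries, at an adjusted p of 0.05. The pseudocount makes differences of low regions look smaller. Peaks were shared when overlapping by at least 1 bp. Intervals are exact (95%). Whether replicate numbers pair the samples is not known. The 2 libraries of a number had deviations correlated at 0.0178 across regions, which does not settle it. Lowest CLIP scores and list lengths went with the number at both days. SciPy 1.17.1, NumPy 2.4.6, pandas 2.3.3 and matplotlib 3.10.9 ran under Python 3.11.15. The model step was run on simulated data with planted changes far larger than those of the members, so its power at their size was not tested. Beside the members, regions were named by 2 rules, overlap with the 20 kb to either side and the 5 smallest distances over 6 values. Some neighbours and peaks within 50 kb were named after their values were seen. Lists of naive-state and FGF-pathway genes and of markers of other cell types were not run, since no mm9 annotation was used.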

Additional observations from a re-analysis of the deposited data

How the results depend on the processing

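Over the alternatives run, no result changed sign. The count of regions called between days by limma was 0 under all settings but a pseudocount of 0.1, which gave 359, each with no peak in both libraries of a day and without Zfp42 or Fgf4 among them. The CLIP differences were -1.52 ± 0.68 and -1.63 ± 0.83 (SE) for Zfp42 and Fgf4 with a replicate block, which called 0 regions and was not fitted for RNA or ChIP values. Leaving out a library gave -1.91 to -1.13 for Zfp42, -2.38 to -0.88 for Fgf4 and 0 to 0 calls. A common score minimum of 416, added after seeing the data and assuming that lists share a score scale, gave -2.13 for Zfp42. The RNA change of Zfp42 was -2.43 with a pseudocount of 0.1, -2.60 when centred on the median change of 21554 regions (0.27), and -2.90 for transcript sums, also added later; centred, Fgf4 had -0.49. ChIP counts moved too. Zfp42 had 1 peak at day 3 within 10 kb, and 7, 13 and 5 within 50 kb with 4 shared by the 3 libraries. With scores above the list median it had 1 in day 0 replicate 2 and 1 at day 3. Fgf4 had 1 peak in day 0 replicate 1, 1 at day 3 and 0 shared within 10 kb, and 6, 7 and 7 with 5 shared within 50 kb. With scores above the median it had 1 in day 0 replicate 1 and 1 at day 3. For each of these the cause was not tested beyond what the setting itself removes or adds. In all, 22 values moved and 68 did not. Read depth is unknown, so a lack of peaks cannot be told from low coverage.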
